A study of Mus musculus with 15 samples.

Results

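The cytosolic ribosomal protein genes were followed here across small interfering RNA (siRNA) knockdowns of 4 DEAD-box RNA helicases. Members were chosen by name: gene IDs of the form Rpl or Rps with a number, with the stalk proteins Rplp0, Rplp1 and Rplp2 and the small-subunit protein Rpsa, and without Rpl22, Rps27 and Rpl3. The pattern matched 77 IDs, and setting those 3 aside left 74 of the 23845 gene IDs in the tables, 30 for proteins of the small subunit and 44 for proteins of the large subunit. All 74 passed the count filter. They were counted in 15 libraries of poly(A) RNA from E14, a line of mouse embryonic stem cells, with 3 biological replicates in each of 5 groups. The control group received siRNA against EGFP (EGFPKD), a gene taken from jellyfish, and the others siRNA against Ddx10 (Ddx10KD), Ddx24 (Ddx24KD), Ddx27 (Ddx27KD) or Ddx54 (Ddx54KD). In all 5 groups cells kept on gelatin were transfected with 400 ng of siRNA by Lipofectamine 2000 for 16 h and were collected at 48 h. Bulk RNA from whole cultures does not separate a change in RNA per cell from a change in which cells are present, and counts relative to a library total do not show the amount of RNA per cell.

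Each cytosolic ribosome holds a single copy of nearly every ribosomal protein, and the subunits are put together in the nucleolus on ribosomal RNA precursors, with DEAD-box helicases among the assembly factors. The yeast relatives of Ddx24, Ddx27 and Ddx54 act in assembly of the large subunit, and that of Ddx10 in early processing steps of the small subunit. Vertebrate ribosomal protein messages typically begin with a C followed by a stretch of pyrimidines, the TOP motif, through which mTOR and Larp1 control their translation and stability, and embryonic stem cells make these messages at high levels.

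The starts of some messages are shown because the TOP motif lies at the start. RefSeq start windows on build GRCm38.p6, which has the same coordinates as mm10, were given for 55 of the 74 members. In 12 of the 55 (21.8%) an annotated start opened with a C and at least 4 pyrimidines, against 3.01% of 27025 genes. The exact base of a start was taken from the annotation and not checked in these libraries. Members outside the 12 may therefore still begin with the motif. Below, 6 of the 12 are printed in 30 bases each, from 10 before the start to 20 after it, with the pyrimidine run that begins at the start in capitals. Rps10 (chr17:27635225-27635254, reverse strand), Rps6 (chr4:86857348-86857377, reverse) and Rps15a (chr7:118116128-118116157, reverse) were called higher in Ddx24KD, Ddx27KD and Ddx54KD, and Rplp2 (chr7:141447641-141447670, forward) in Ddx10KD and Ddx24KD. Rpl15 (chr14:18270967-18270996, reverse) was called lower in Ddx10KD, though not without EGFPKD replicate 1, 2 or 3 or Ddx10KD replicate 1, 2 or 3 (adjusted p up to 0.178), and Rpl38 (chr11:114668570-114668599, forward) in no knockdown. Rpl15 and Rpl38 were chosen for printing after their values were seen.
Rps10: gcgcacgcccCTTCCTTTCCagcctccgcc
Rps6: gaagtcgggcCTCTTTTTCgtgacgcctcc
Rps15a: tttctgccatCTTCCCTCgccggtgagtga
Rplp2: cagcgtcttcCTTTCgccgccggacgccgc
Rpl15: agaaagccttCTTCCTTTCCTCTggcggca
Rpl38: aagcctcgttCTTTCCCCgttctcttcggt

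The 6 starts carry runs of 5 to 13 pyrimidines, in messages whose calls differed. In the 100 bases around the start, the hexamer CTTTCC lay on the sense strand in 16 of 55 members (29.1%) and 5.43% of all genes, and on the other strand in 1 member (1.82%) and 5.12% of genes. CTCTTT, which overlaps it in CTCTTTCC, lay on the sense strand in 19 members (34.5%) and 4.68% of all genes, and on the other strand in 1 member and 4.46%. A pyrimidine run of at least 8 bases lay in the same window in 46 of 55 members (83.6%) and in 39.3% of all genes. In Ddx24KD, 8 of the 12 members whose start opened with a C and 4 pyrimidines were called higher, against 24 of the other 43 with a sequence and 12 of the 19 with none, where 21.3% of all tested genes were called higher. The medians of the log2 change in Ddx24KD were 0.12, 0.10 and 0.12. In the same order they were 0.021, -0.032 and -0.014 in Ddx10KD, 0.091, 0.086 and 0.088 in Ddx27KD and 0.099, 0.076 and 0.10 in Ddx54KD. The difference between these groups of members was not tested in any knockdown.

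Ribosomal protein messages made up a large share of the transcripts, and in TPM the share was higher in the knockdown libraries. In TPM, a scale of transcript abundance that allows for length, the 74 members held 19.1%, 19.99% and 19.5% of all TPM in the 3 EGFPKD libraries. The share was 20.01%, 20.8% and 20.2% in Ddx10KD, 20.9%, 21.5% and 21.6% in Ddx24KD, 21.3%, 21.8% and 20.7% in Ddx27KD and 20.4%, 21.9% and 21.1% in Ddx54KD. All libraries of Ddx24KD, Ddx27KD and Ddx54KD lay above all those of EGFPKD, as did those of Ddx10KD, the last by a small margin. The large-subunit members summed to 1.45 to 1.46 times the TPM of the small-subunit members in EGFPKD and to 1.40 to 1.41 times in Ddx10KD. The same ratio spanned 1.39 to 1.43 in Ddx24KD, 1.40 to 1.45 in Ddx27KD and 1.41 to 1.46 in Ddx54KD. In raw expected counts, which do not allow for length, the members took 6.49% to 6.91% of EGFPKD libraries, 6.70% to 7.05% in Ddx10KD, 7.06% to 7.44% in Ddx24KD, 6.89% to 7.45% in Ddx27KD and 6.89% to 7.61% in Ddx54KD. On that scale only Ddx24KD did not overlap with the control.

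**Figure D1:**
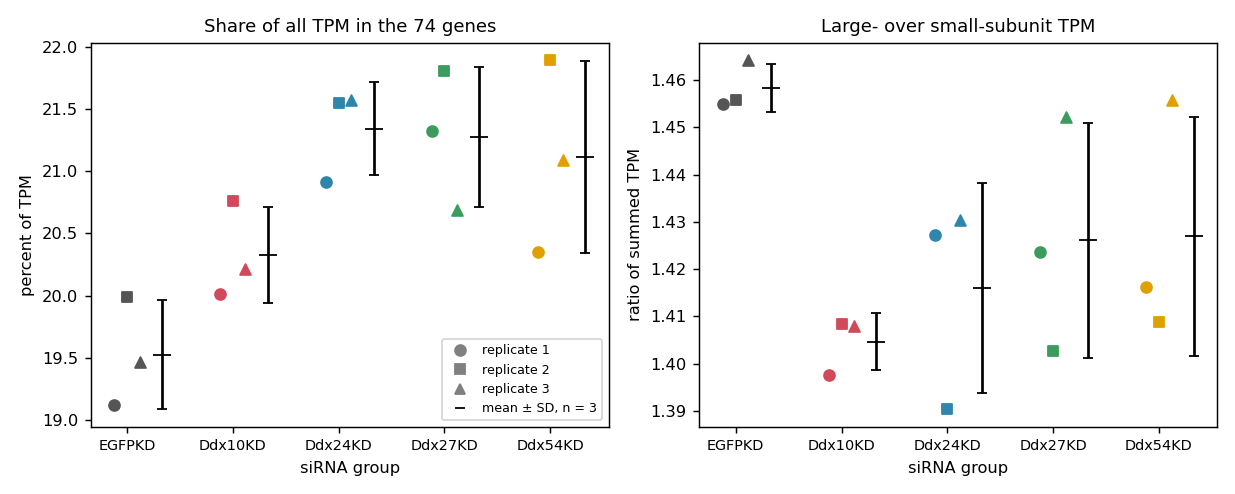
Left, percent of all TPM in the 74 members by siRNA group; right, summed TPM of large-subunit members over that of small-subunit members. Symbols are libraries by replicate number and bars are mean ± SD of 3; neither axis starts at 0. The EGFPKD libraries have the lowest shares (19.1% to 19.99%) and, at 1.45 to 1.46, ratios that of the other libraries only Ddx54KD replicate 3 reaches.

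Individual members differed widely in level. Rpl23a, which lines the exit of the peptide tunnel and contacts the signal recognition particle, was the highest by mean TPM, at 5688, 5790.1 and 6071 TPM in EGFPKD. Rpl41, the smallest ribosomal protein, stood at 5699.9, 5815 and 5733 TPM, and Rps26, a protein beside the messenger RNA exit channel, at 5491, 5322 and 5458. The libraries of Rpl23a and Rpl41 overlapped, and those of Rps26 lay below both. Lowest were Rps15a at 163, 172 and 164 TPM, Rpl39, a small protein of the tunnel wall, at 905, 882 and 838, and Rpl37 at 848, 911 and 893. Rpl39 and Rpl37 overlapped. The transcript counted for Rps15a is 5134 bases long, against a median length of 693.5 bases over the members, and a long transcript lowers the TPM that a given count yields. Even the lowest member count in a library, for Rpl39 in EGFPKD replicate 3, was 3707 expected counts.

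Libraries held 26836946 to 27708782 expected counts, and each siRNA lowered its own target, with log2 changes of -2.43 ± 0.095 (SE), -1.70 ± 0.063, -2.14 ± 0.040 and -1.84 ± 0.066. Targets of the other siRNAs were mostly lower than in EGFPKD as well. Ddx24 stood at 120.0 to 129.8 TPM in EGFPKD, 99.1 to 103.6 in Ddx10KD, 105.3 to 107.1 in Ddx27KD and 102.3 to 115.3 in Ddx54KD. Ddx27 in Ddx10KD overlapped with the control. The 8 embryonic stem cell markers listed summed to 6923 to 7291 TPM with overlapping ranges in all groups, and in the mean of the 4 knockdowns 3 were called higher and 4 lower. Of 10 fibroblast markers 7 failed the count filter, and Postn was at 0 in all libraries. The 10 summed to 19.2 to 27.99 TPM in EGFPKD and 14.2 to 20.03 TPM in the knockdowns, with Thy1 called lower and Twist1 higher. The 4 erythroid markers in the tables summed to 0.16 to 0.44 TPM in EGFPKD and 0.41 to 1.01 TPM in the knockdowns, with Hbb-bs and Hbb-bt at 0 throughout. The part of these markers in the results was not tested. Replicate numbers paired the libraries, so every fit below has the replicate number as a block. Replicate 2 had the highest share of counts in the members in each of the 5 groups.

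The comparisons of each knockdown with EGFPKD asked which messages changed when 1 helicase was targeted. Members moved by little but mostly one way in 3 of the 4. In Ddx24KD, 44 of 74 members were called higher and 0 lower (edgeR quasi-likelihood test, Benjamini-Hochberg adjusted p under 0.05 over 14335 genes), where 21.3% of all genes were called higher and 19.9% lower. In Ddx27KD the counts were 33 higher and 1 lower, against 23.3% and 22.6% of all genes, and in Ddx54KD 33 and 0, against 20% and 18.8%. In both counts of 0, 1 member was lower at an unadjusted p under 0.05, and DESeq2 and limma-voom also called 0. The median log2 change over the members was 0.12 in Ddx24KD, 0.086 in Ddx27KD and 0.087 in Ddx54KD, where the median over all tested genes lay between 0.0022 and 0.0076. In Ddx10KD only 6 members were called higher and 13 lower, against 22.8% and 21.3%, and their median was -0.0070. The 4 comparisons share the EGFPKD libraries, so their values are given side by side and not as repeats of each other.

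The changes were small beside those of the transcriptome. A change of 1.2-fold or more was reached by 1 member in Ddx10KD, 1 in Ddx24KD and none in Ddx27KD or Ddx54KD, whereas 33.6% to 39.2% of all tested genes reached it. The largest fall was that of Rps20 in Ddx10KD, -0.29 on the log2 scale. The median SE of the change was 0.036 over the members and 0.075 over all genes.

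How far these calls rest on the pairing was measured directly. Without the replicate block, the counts were 14 higher and 0 lower in Ddx24KD, 8 and 1 in Ddx27KD, 6 and 0 in Ddx54KD and 3 and 7 in Ddx10KD. The groups of 3 did not overlap, with the knockdown above, for 31 members in Ddx24KD (background 21.1%), 13 in Ddx27KD (23.4%), 11 in Ddx54KD (20.7%) and 5 in Ddx10KD (23.8%). The shares of members for Ddx27KD, Ddx54KD and Ddx10KD were thus below those of all genes. They were below with no overlap for 0, 1, 1 and 11 members in the same order (19.6%, 23.3%, 19.5% and 22.4%). Set against the EGFPKD library of the same number, members were higher in all 3 pairs for 66 of 74 in Ddx24KD (31.3% of all genes), 49 in Ddx27KD (33.3%), 54 in Ddx54KD (31.9%) and 19 in Ddx10KD (34.1%). They were lower in all 3 pairs for 1, 1, 1 and 27 (30.5%, 31.9%, 30.8% and 32.9%). The median over members of the log2 difference within a pair ran from 0.10 to 0.14 in Ddx24KD, 0.045 to 0.13 in Ddx27KD, 0.063 to 0.12 in Ddx54KD and -0.037 to 0.011 in Ddx10KD. Single libraries also moved the counts of higher members. Without EGFPKD replicate 2 the count was 3 in Ddx10KD, 20 in Ddx27KD and 15 in Ddx54KD, and without EGFPKD replicate 1 it was 20 in both Ddx27KD and Ddx54KD. It was 18 and 20 in Ddx27KD without its own replicate 1 or 2, 13 and 21 in Ddx54KD without its own replicate 2 or 3, and 11 in Ddx10KD without Ddx24KD replicate 2. No single library moved the count of 44 in Ddx24KD by over 1.5 times (30 to 52).

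**Figure D2:**
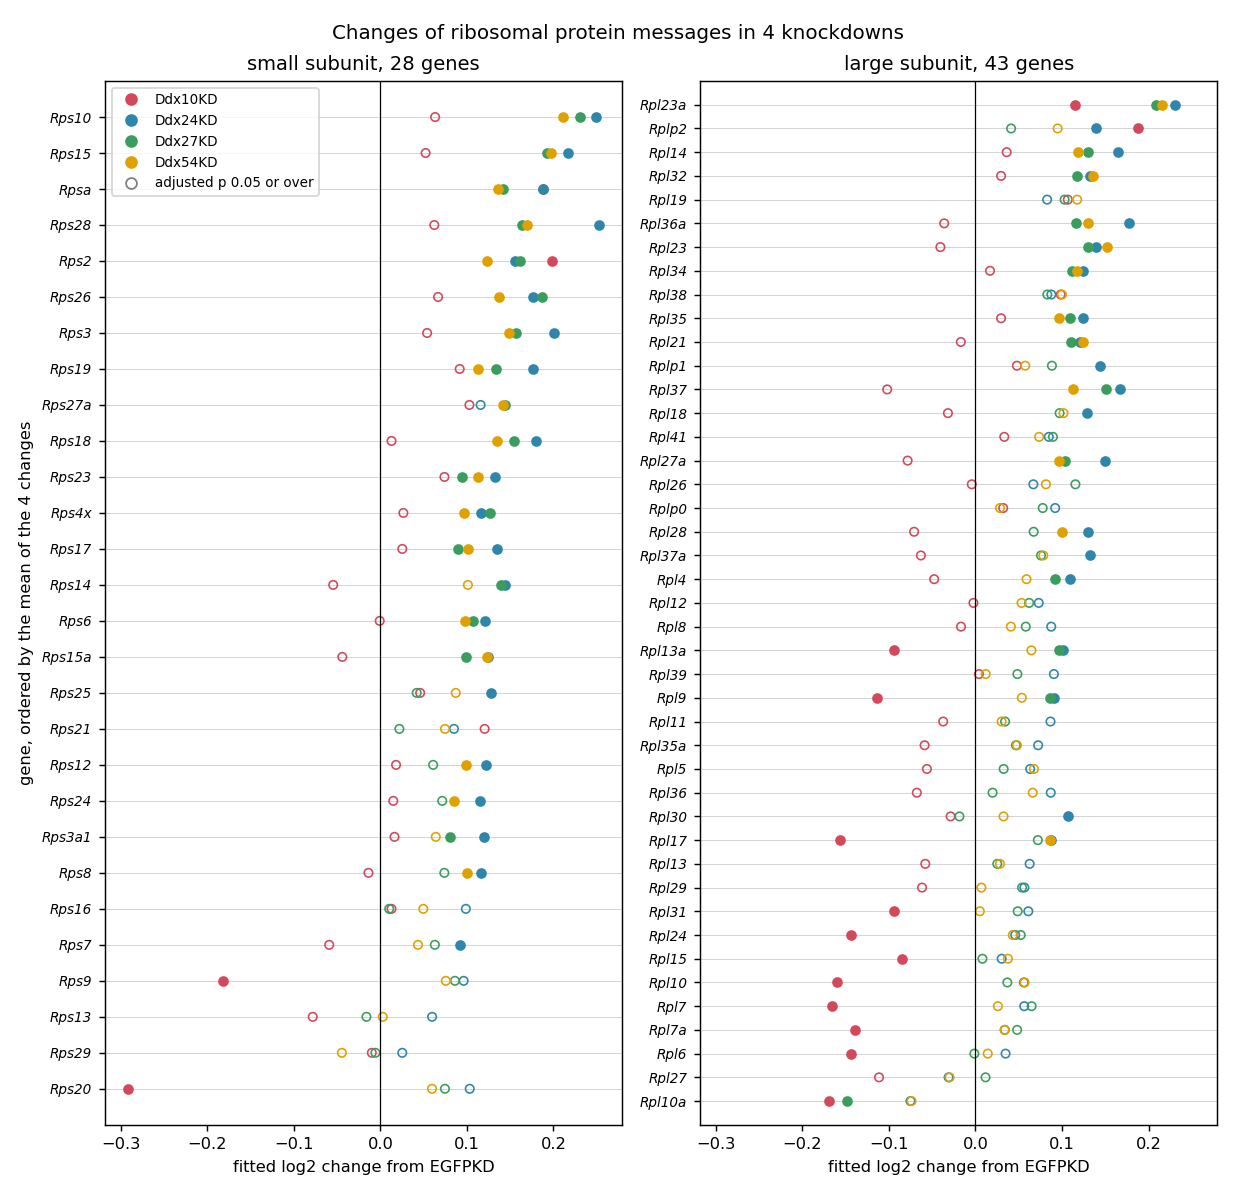
Fitted log2 change from EGFPKD of each of the 28 small-subunit and 43 large-subunit members, 71 of the 74, in order of the mean of the 4 changes, with 1 circle for each knockdown. Filled circles have an edgeR adjusted p under 0.05. Blue, green and yellow circles (Ddx24KD, Ddx27KD, Ddx54KD) lie mostly right of 0 and close together, and the red circles of Ddx10KD lie left of them for most members, farthest for Rps20 at -0.29.

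Small-subunit messages made up more of the rises. In the mean of the 4 knockdowns against EGFPKD, 36 members were called higher and 1 lower, against 25.9% and 25.2% of all genes, with 12 and 1 when the block was left out and 22 and 19 higher without EGFPKD replicate 1 or 2. The higher calls fell on 22 of 30 small-subunit members and on 14 of 44 large-subunit members, and the medians of the log2 change were 0.085 and 0.050. In Ddx24KD 23 small and 21 large members were called higher (21.3% of all genes), in Ddx27KD 19 and 14 (23.3%), and in Ddx54KD 20 and 13 (20%). In the mean and in each of these knockdowns, the large-subunit share was nearer to that of all genes than the small-subunit share. Whether the subunits differ in their response was not tested.

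Among proteins of the head of the small subunit, Rps10, which sits near the messenger RNA entry channel, had the largest mean rise. Its level, as TMM-scaled CPM (counts relative to the library total), was 595, 650.4 and 618 in the EGFPKD libraries, 636, 673 and 638 in Ddx10KD, 702, 779 and 735 in Ddx24KD, 749.5, 757 and 681 in Ddx27KD and 680.5, 797 and 683 in Ddx54KD. Libraries of the last 3 groups were all above all EGFPKD libraries, while Ddx10KD overlapped with the control. The log2 change was 0.25 ± 0.040 (SE) in Ddx24KD (edgeR adjusted p 6.34e-05), 0.23 ± 0.040 in Ddx27KD (1.11e-04), 0.21 ± 0.040 in Ddx54KD (3.86e-04) and 0.063 ± 0.040 in Ddx10KD (0.214). Rps15, another head protein, stood at 718, 733 and 718 CPM in EGFPKD, 739.8, 774 and 736 in Ddx10KD, 813, 862 and 847 in Ddx24KD, 838, 860.0 and 782 in Ddx27KD and 783, 908 and 799 in Ddx54KD. It was above the control without overlap in all 4 knockdowns, and was called in Ddx24KD, Ddx27KD and Ddx54KD with log2 changes of 0.22 ± 0.038, 0.19 ± 0.038 and 0.20 ± 0.038 (adjusted p 1.49e-04, 3.68e-04 and 4.40e-04) but not in Ddx10KD (0.052 ± 0.038, adjusted p 0.28). Both genes kept these 3 calls without the block. Rps28, near the messenger RNA exit, rose by 0.25 ± 0.046 in Ddx24KD, 0.16 ± 0.046 in Ddx27KD and 0.17 ± 0.046 in Ddx54KD. Its adjusted p were 2.28e-04, 0.00667 and 0.00677 with the block and 0.0148, 0.0842 and 0.0923 without it. The call in Ddx27KD was also lost without EGFPKD replicate 1 or 2 or Ddx27KD replicate 2 (adjusted p up to 0.0687), and that in Ddx54KD without EGFPKD replicate 1 or 2 or Ddx54KD replicate 2 (adjusted p up to 0.067). Rps19, the gene most often mutated in Diamond-Blackfan anaemia, was called higher in the same 3 (0.18 ± 0.037, 0.13 ± 0.037 and 0.11 ± 0.037), and only Ddx24KD kept its call without the block, at an adjusted p of 0.0455. Its call in Ddx27KD was lost without Ddx27KD replicate 2 (adjusted p 0.0641), and that in Ddx54KD without EGFPKD replicate 2 or 3 or Ddx54KD replicate 2 or 3 (adjusted p up to 0.142). Of the 14 head proteins listed, 11 were called higher in the mean of the 4 knockdowns, where 25.9% of all genes were called higher. Most small-subunit members outside the head were called higher as well, and whether the head differs from them was not tested.

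Rpsa, Rps2 and Rpl23a were called higher in all 4 knockdowns. Rpsa, a protein of the back of the small subunit also known as the laminin receptor, stood at 2459, 2679 and 2551 CPM in EGFPKD, 2849, 3112 and 2803 in Ddx10KD, 2859, 3079 and 2822 in Ddx24KD, 2892, 2947 and 2643 in Ddx27KD and 2668, 3054 and 2735 in Ddx54KD. Ddx10KD and Ddx24KD did not overlap with the control, and the lowest libraries of Ddx27KD and Ddx54KD lay below the highest control library. The log2 changes were 0.19 ± 0.034, 0.19 ± 0.034, 0.14 ± 0.034 and 0.14 ± 0.034 (edgeR adjusted p 2.13e-04, 2.49e-04, 0.00238 and 0.0042), and without the block only the first 2 were called (0.0292 and 0.032). Rps2, which lines the messenger RNA entry, went from 2164, 2372 and 2218 CPM in EGFPKD to 2525, 2751 and 2477 in Ddx10KD, 2444, 2665 and 2417 in Ddx24KD, 2618, 2577 and 2353 in Ddx27KD and 2354, 2624 and 2381 in Ddx54KD. Its change in Ddx10KD, 0.20 ± 0.035 (adjusted p 1.54e-04), was the largest rise of a member in that knockdown, and it alone of the 4 was called without the block (0.0207). The call of Rps2 in Ddx54KD was lost without EGFPKD replicate 1 or Ddx54KD replicate 2 (adjusted p up to 0.0626). That of Rpl23a in Ddx10KD was lost without EGFPKD replicate 1 or 2 or Ddx10KD replicate 1 or 2 (adjusted p up to 0.125), and also without the block (0.115), while its other 3 were kept in every fit that left out 1 library.

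The other small-subunit proteins named were called higher in 3 knockdowns at most. Rps26 was called higher in Ddx24KD, Ddx27KD and Ddx54KD (0.18 ± 0.040, 0.19 ± 0.040 and 0.14 ± 0.040). Rps4x, encoded at chromosome X, 102184941 to 102189394, reverse strand, was called in the same 3 (0.12 ± 0.030, 0.13 ± 0.030 and 0.096 ± 0.030), and so was Rps6, the protein that S6 kinases phosphorylate (0.12 ± 0.032, 0.11 ± 0.032 and 0.098 ± 0.032). The call of Rps26 in Ddx54KD was lost without the block (0.114) and without EGFPKD replicate 2 or Ddx54KD replicate 3 (adjusted p up to 0.118). None of the 3 Rps4x or 3 Rps6 calls was kept without the block, where the lowest adjusted p was 0.0518. The calls in Ddx54KD were lost without EGFPKD replicate 2 or Ddx54KD replicate 2 or 3 (adjusted p up to 0.0933) for Rps4x and without EGFPKD replicate 2 or Ddx54KD replicate 2 or 3 (adjusted p up to 0.129) for Rps6, and that of Rps6 in Ddx27KD without EGFPKD replicate 2 or Ddx27KD replicate 1 or 2 (adjusted p up to 0.0667). Rps3a1, on the platform, was called in Ddx24KD (0.12 ± 0.030) and Ddx27KD (0.081 ± 0.030), and Rps27a, which is made as a fusion with ubiquitin, in Ddx27KD (0.14 ± 0.048) and Ddx54KD (0.14 ± 0.048). Rps15a was called in Ddx24KD, Ddx27KD and Ddx54KD with changes of 0.099 to 0.12. No call of Rps3a1, Rps27a or Rps15a in a single knockdown was kept without the block. Rps3a1 in Ddx27KD was lost without EGFPKD replicate 1, 2 or 3 or Ddx27KD replicate 1, 2 or 3 (adjusted p up to 0.117). Rps27a was lost in Ddx27KD without EGFPKD replicate 1 or 2 or Ddx27KD replicate 1 or 2 (adjusted p up to 0.136) and in Ddx54KD without EGFPKD replicate 1, 2 or 3 or Ddx54KD replicate 1 or 2 (adjusted p up to 0.175). Rps15a was lost in Ddx24KD without Ddx24KD replicate 3 (adjusted p 0.0773), in Ddx27KD without EGFPKD replicate 2 or 3 or Ddx27KD replicate 1 or 2 (adjusted p up to 0.127) and in Ddx54KD without EGFPKD replicate 2 or 3 or Ddx54KD replicate 2 (adjusted p up to 0.132).

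Of the large subunit, Rpl23a, the member with the highest TPM, stood at 1396, 1455 and 1490.5 CPM in EGFPKD, 1517, 1641 and 1547 in Ddx10KD, 1667, 1631 and 1796 in Ddx24KD, 1633, 1738 and 1645 in Ddx27KD and 1567, 1757 and 1722 in Ddx54KD. It lay above the control without overlap in all 4, with log2 changes of 0.12 ± 0.039, 0.23 ± 0.039, 0.21 ± 0.039 and 0.22 ± 0.039. It was also called without the block in Ddx24KD, Ddx27KD and Ddx54KD.

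The proteins of the stalk, which recruits translation factors to the large subunit, moved unevenly. Rplp0, its base, stood at 2487, 2735 and 2595 CPM in EGFPKD and was called in no knockdown, with changes of 0.028 to 0.092. Rplp1 was called in Ddx24KD alone of the 4 (0.14 ± 0.039, adjusted p 0.00575, 0.0661 without the block). Its partner Rplp2 was called in Ddx10KD and Ddx24KD. Rplp2 stood at 453, 500.5 and 445 CPM in EGFPKD, 494, 566 and 533 in Ddx10KD and 495, 524 and 519.6 in Ddx24KD, so that 1 of 3 Ddx10KD libraries lay below the highest control library. The changes were 0.19 ± 0.046 (edgeR adjusted p 0.00275) and 0.14 ± 0.046 (0.0214), and 0.0446 and 0.145 without the block. The call in Ddx24KD was also lost without EGFPKD replicate 1 or 3 or Ddx24KD replicate 1 or 3 (adjusted p up to 0.114).

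Rpl5 and Rpl11, which join the ribosome with 5S ribosomal RNA and, when free, bind the p53 regulator Mdm2, were called in no knockdown against EGFPKD. Rpl5 stood at 1110.0, 1194 and 1112 CPM in EGFPKD, 1056, 1149 and 1080.5 in Ddx10KD, 1137, 1277 and 1157 in Ddx24KD, 1136, 1197 and 1159 in Ddx27KD and 1159.7, 1249.9 and 1169 in Ddx54KD. Rpl11 stood at 634, 704 and 661, 638, 679.6 and 629.8, 676, 723 and 722, 691, 705 and 649 and 637, 747 and 659.7 CPM in the same order. Each knockdown overlapped with the control for both genes. The largest changes were 0.068 ± 0.029 for Rpl5, in Ddx54KD (adjusted p 0.0729), and 0.087 ± 0.039 for Rpl11, in Ddx24KD (0.0812). Rplp0, Rpl41 and Rpl39 were also called in no knockdown against EGFPKD.

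Rpl10a, the protein of the L1 stalk through which spent transfer RNA leaves, was the only member called lower in the mean of the 4 knockdowns. It stood at 731, 764 and 746 CPM in EGFPKD, 678, 679 and 636 in Ddx10KD, 692, 746 and 691 in Ddx24KD, 683, 681 and 658 in Ddx27KD and 685, 725 and 719 in Ddx54KD. All libraries of Ddx10KD, Ddx27KD and Ddx54KD lay below all control libraries, and 1 Ddx24KD library did not. The changes were -0.17 ± 0.034 in Ddx10KD (edgeR adjusted p 5.15e-04), -0.15 ± 0.034 in Ddx27KD (0.00151), -0.075 ± 0.034 in Ddx24KD (0.0856) and -0.074 ± 0.034 in Ddx54KD (0.0946). The mean of the 4 was -0.12 ± 0.027 (adjusted p 0.00125), and both single calls were kept without the block and without each single library.

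In Ddx10KD members were called in both directions. The share called lower, 13 of 74, was below the 21.3% of all tested genes called lower, and that of the large subunit, 11 of 44, was near it. Of the 13 members called lower, 11 were of the large subunit (Rpl6, Rpl7, Rpl7a, Rpl9, Rpl10, Rpl10a, Rpl13a, Rpl15, Rpl17, Rpl24 and Rpl31) and 2 of the small (Rps9 and Rps20), and the difference between the subunits was not tested. The medians of the log2 change were -0.044 over the 44 large-subunit and 0.026 over the 30 small-subunit members. The median over large-subunit members was below 0 in each same-numbered pair (-0.065 to -0.015), and that over small-subunit members above 0 (0.031 to 0.048). The sign of the former depended on scaling: it was -0.0064 with library totals only and 0.014 on the log2 TPM scale, where the median of all genes was itself at 0.044 and 0.051. The split of calls moved too, to 15 higher and 9 lower with library totals and to 21 and 8 with TPM.

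Rps20, a head protein of the small subunit, fell most. Its gene, at chromosome 4, 3831334 to 3835665, reverse strand (mm10), holds 1 annotated small nucleolar RNA gene. It stood at 803, 889.8 and 839 CPM in EGFPKD, 684, 698 and 684 in Ddx10KD, 806, 1000.1 and 919 in Ddx24KD, 848, 982 and 841 in Ddx27KD and 865, 969.7 and 808 in Ddx54KD. The 3 Ddx10KD libraries were close to each other and below the other 12. The change was -0.29 ± 0.047 (81.7% of EGFPKD, edgeR adjusted p 6.91e-05, 0.0109 without the block), while Ddx24KD, Ddx27KD and Ddx54KD gave 0.10 ± 0.047, 0.075 ± 0.047 and 0.060 ± 0.047, none called. Rps9, in the body of the small subunit, stood at 777, 864 and 821 CPM in EGFPKD and 718, 729 and 721 in Ddx10KD, without overlap. It fell by 0.18 on the log2 scale (adjusted p 0.00206, 0.021 without the block).

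Rpl10, which joins the large subunit late and lies near the site of peptide bond formation, is encoded at chromosome X, 74270812 to 74273135, forward strand. Its level was 1040.1, 1101 and 1053 CPM in EGFPKD, 937, 994 and 929 in Ddx10KD, 1073, 1139 and 1108 in Ddx24KD, 1094, 1118 and 1065 in Ddx27KD and 1067, 1176 and 1081 in Ddx54KD. Ddx10KD alone lay apart from the control, with a change of -0.16 ± 0.030 (edgeR adjusted p 2.74e-04, 0.0179 without the block). Rpl7 stood at 1358, 1421 and 1294 CPM in EGFPKD and 1226, 1234 and 1168 in Ddx10KD, again without overlap, a change of -0.17 ± 0.030 (2.15e-04, 0.0344 without the block). Rpl24, which forms a bridge between the subunits, stood at 659, 677 and 623 and 600.3, 618 and 555 CPM in the same groups, and changed by -0.14 ± 0.033 (0.00146), a call lost without the block (0.144). Of the 13 lower calls, 9 were kept in each of the 15 fits that left out 1 library, those of Rps20, Rps9, Rpl6, Rpl7, Rpl7a, Rpl10, Rpl10a, Rpl17 and Rpl24.

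Rpl17, Rpl13a and Rpl9 were called lower in Ddx10KD and higher elsewhere. Rpl17, at the tunnel wall, stood at 863, 892 and 861 CPM in EGFPKD, 777, 819 and 752 in Ddx10KD, 882, 993 and 909 in Ddx24KD, 900.5, 959.5 and 892 in Ddx27KD and 872, 1011 and 899.9 in Ddx54KD. Its changes were -0.16 ± 0.034 in Ddx10KD (adjusted p 9.29e-04), 0.088 ± 0.034 in Ddx24KD (0.0433) and 0.086 ± 0.034 in Ddx54KD (0.0493), all edgeR values. Both rises were near the threshold. That in Ddx24KD was kept in 4 of the 15 fits without 1 library, those without EGFPKD replicate 1, Ddx27KD replicate 3 or Ddx54KD replicate 1 or 2, and that in Ddx54KD in 3, those without Ddx24KD replicate 2, Ddx27KD replicate 3 or Ddx54KD replicate 1; elsewhere the adjusted p reached 0.267 and 0.314. Rpl13a, which can leave the ribosome to silence messages after interferon, changed by -0.095 ± 0.035 in Ddx10KD, 0.10 ± 0.035 in Ddx24KD and 0.096 ± 0.035 in Ddx27KD, and Rpl9 by -0.11 ± 0.034, 0.091 ± 0.034 and 0.086 ± 0.034. Calls of Rpl13a were lost in Ddx10KD without EGFPKD replicate 2 or 3 or Ddx10KD replicate 2 or 3 (adjusted p up to 0.188), in Ddx24KD without EGFPKD replicate 1 or 2 or Ddx24KD replicate 3 (adjusted p up to 0.142) and in Ddx27KD without EGFPKD replicate 1 or 2 or Ddx27KD replicate 1 or 2 (adjusted p up to 0.199). Those of Rpl9 were lost in Ddx10KD without Ddx10KD replicate 2 (adjusted p 0.115), in Ddx24KD without EGFPKD replicate 1, 2 or 3, Ddx10KD replicate 1, Ddx24KD replicate 2 or 3 or Ddx27KD replicate 1 or 2 (adjusted p up to 0.137) and in Ddx27KD in all fits but those without Ddx10KD replicate 2, Ddx24KD replicate 2 or Ddx54KD replicate 3 (up to 0.157). No call of these 3 genes against EGFPKD was kept without the block, where that of Rpl17 in Ddx10KD came nearest (adjusted p 0.0562).

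**Figure D3:**
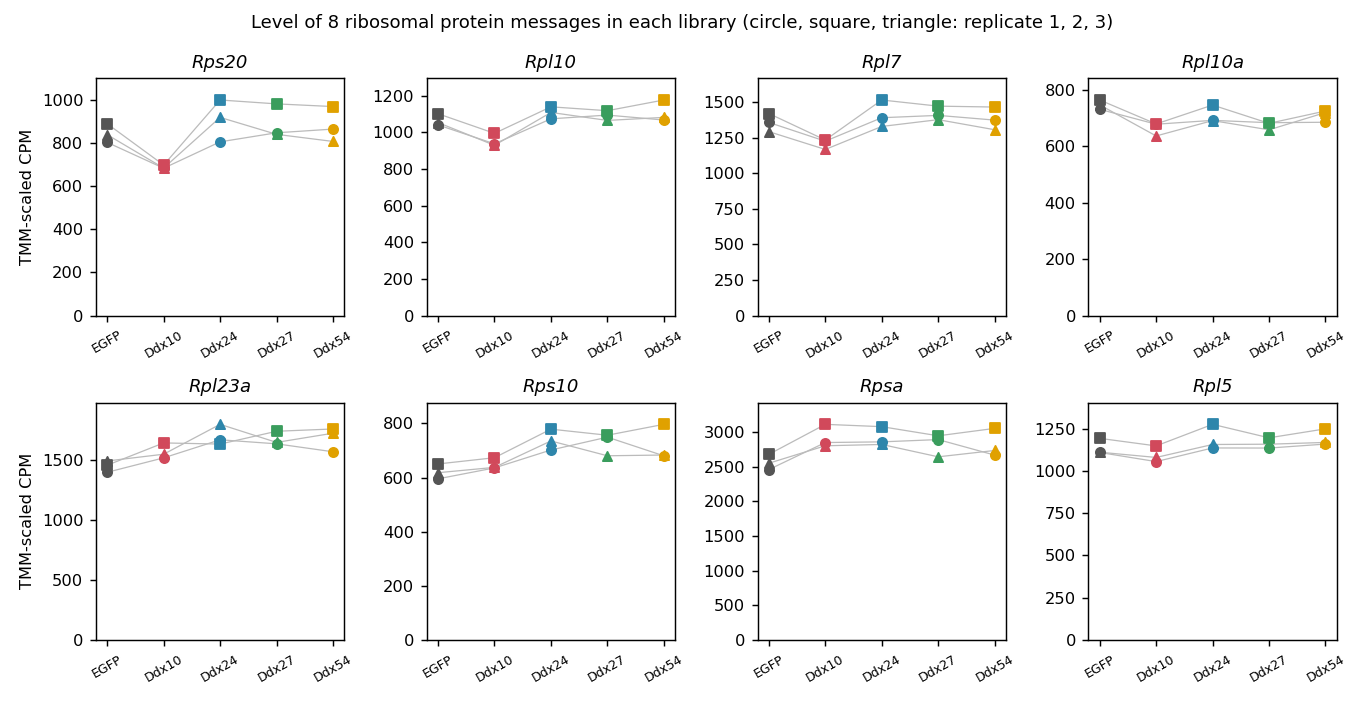
TMM-scaled CPM of 8 members in each of the 15 libraries, with an axis from 0; grey lines join libraries of the same replicate number. Rps20, Rpl10 and Rpl7 dip in Ddx10KD alone, Rps10 is raised in Ddx24KD, Ddx27KD and Ddx54KD, Rpl23a lies above the control in all 4, Rpsa is raised in all 4 with some overlap in Ddx27KD and Ddx54KD, Rpl10a is lowest in Ddx10KD and Ddx27KD, and Rpl5 overlaps with the control throughout.

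The knockdowns were then compared with each other. A test of any difference among the 4 called 33 of 74 members, where 11.2% of all genes were called. The 33 were 10 small-subunit and 23 large-subunit members, and the count was 20, 17 and 15 without Ddx10KD replicate 1, 2 or 3. Between pairs, Ddx24KD was higher than Ddx10KD for 38 members (3.09% of all genes), Ddx27KD for 26 (2.96%) and Ddx54KD for 28 (5.3%), and no member was called lower than in Ddx10KD in any of these 3 pairs (2.32%, 2.39% and 5.28% of all genes). At an unadjusted p under 0.05 the lower counts were 0, 1 and 1, and DESeq2 and limma-voom called 39 to 43, 29 to 33 and 32 members in either direction. Between Ddx24KD, Ddx27KD and Ddx54KD, 0 members were called in each of the 3 pairs by edgeR, DESeq2 and limma-voom (0.0558%, 1.74% and 2.62% of all genes in either direction by edgeR). At an unadjusted p under 0.05, 6 members differed between Ddx27KD and Ddx24KD, 2 between Ddx54KD and Ddx24KD and 1 between Ddx54KD and Ddx27KD. Single libraries moved the counts against Ddx10KD too. For Ddx24KD, 18 and 19 members differed without Ddx10KD replicate 2 or 3 and 21 without Ddx24KD replicate 3. For Ddx27KD, 17, 15 and 13 differed without Ddx10KD replicate 1, 2 or 3 and 15 and 16 without Ddx27KD replicate 1 or 2. For Ddx54KD, 17 and 18 differed without Ddx10KD replicate 2 or 3 and 17 without Ddx54KD replicate 2. The largest fitted difference in any pair among Ddx24KD, Ddx27KD and Ddx54KD was 0.13 on the log2 scale, which does not show that the 3 knockdowns act alike.

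These differences leaned on the pairing as well. Without the block, 0 members differed among the 4 knockdowns (22 at an unadjusted p under 0.05, lowest adjusted p 0.0573), and 2, 0 and 3 differed between Ddx10KD and Ddx24KD, Ddx27KD and Ddx54KD. The 0 for Ddx27KD compares with 26 members at an unadjusted p under 0.05 in that fit. Rps20 was higher than in Ddx10KD by 0.39 ± 0.048 in Ddx24KD, 0.37 ± 0.047 in Ddx27KD and 0.35 ± 0.047 in Ddx54KD (edgeR adjusted p 8.28e-05, 3.00e-04 and 1.64e-04), the largest differences of any member. Without the block its adjusted p were 0.0379, 0.0779 and 0.037. Rps9 differed by 0.28 ± 0.043, 0.27 ± 0.043 and 0.26 ± 0.043 and Rpl37 by 0.27 ± 0.041, 0.25 ± 0.041 and 0.21 ± 0.041, all 6 called with the block. Rpsa, Rps2, Rpl23a, Rps19 and Rplp0 were called in none of the 3 pairs with Ddx10KD.

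**Figure D4:**
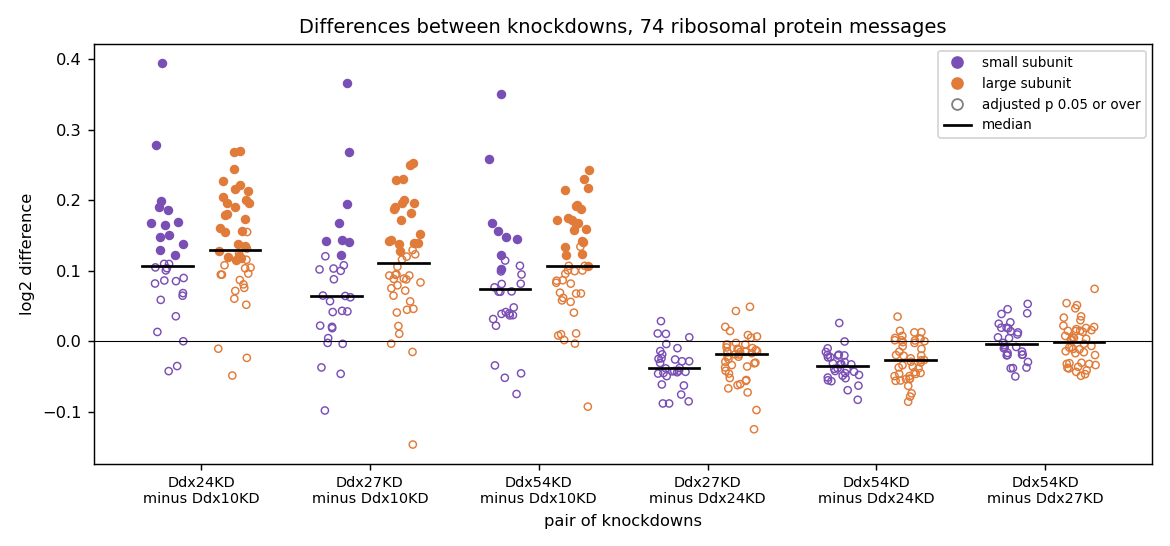
Log2 differences of the 74 members between each pair of knockdowns, with small-subunit members in purple and large-subunit members in orange; filled points have an edgeR adjusted p under 0.05 and black lines are medians. Points are spread sideways at random. In the 3 pairs with Ddx10KD most points lie above 0, with Rps20 highest at 0.39, 0.37 and 0.35, and in the other 3 pairs no point is filled.

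Small nucleolar RNA genes lie within 29 of the 74 member genes in GENCODE M21, 56 of them in all. In Ddx24KD, 19 of 29 hosts and 25 of the other 45 were called higher, where 21.3% of all genes were. The median log2 change was 0.12 for both. In Ddx10KD, 5 of 29 hosts were called higher and 6 lower, against 1 and 7 of the other 45, where 22.8% of all genes were higher and 21.3% lower, so that no share of hosts lay above that of all genes. The medians of the log2 change were -0.017 and -0.00076. Whether hosts and other members differ was not tested.

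Other ribosome components outside the members gave values on both sides of 0. Gnb2l1, now named Rack1, a scaffold on the small subunit, was called higher in the mean of the 4 knockdowns (0.11 ± 0.038, edgeR adjusted p 0.0163), in which 25.9% of all genes were called higher and 25.2% lower. Fau was not called in that mean (-0.022 ± 0.036, 0.643) or in any knockdown, nor was Rpl22 (adjusted p 0.998 in the mean). Rps27, of the small subunit, missed the threshold in the mean (0.081 ± 0.034, 0.0539) but was called higher in Ddx24KD, Ddx27KD and Ddx54KD, by 0.14 ± 0.043, 0.13 ± 0.043 and 0.14 ± 0.043 (edgeR adjusted p 0.0112, 0.0188 and 0.015). Its change in Ddx10KD was -0.087 ± 0.043 (0.109), and it differed among the 4 knockdowns (0.00355). Rpl3, a core protein of the large subunit near the peptidyl transferase centre, stood at 1795, 1963 and 1810.5 CPM in EGFPKD and at 1450 to 1730 CPM in the 12 knockdown libraries, all below the control. Its mean change was -0.27 ± 0.026 (7.95e-08), more than that of any member. Of 8 tested paralogues 1 was called higher, Rps27l (0.44 ± 0.038), a p53 target, and 5 lower, among them Rpl22l1 (-1.30 ± 0.065), Rpl36al (-0.21 ± 0.025) and Rpl7l1 (-0.24 ± 0.033). Reads of such copies can be shared with the parent gene, so their split is uncertain.

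Of 7 carriers and chaperones of ribosomal proteins, 3 were called lower and none higher in the mean of the 4 knockdowns. Heatr3, which takes part in import of Rpl5, changed by -0.37 ± 0.037 (edgeR adjusted p 1.70e-07), Nap1l1, a nucleosome assembly protein, by -0.24 ± 0.033 and Bccip, a chaperone of Rpl23, by -0.17 ± 0.039. Of 22 listed regulators of TOP messages, 8 were called higher and 5 lower, against 25.9% and 25.2% of all genes, so that the lower calls were no more frequent than over all genes. Ddit4, an inhibitor of mTOR signalling, rose from 21.6, 27.9 and 18.8 CPM in EGFPKD to between 49.6 and 98.6 CPM in the knockdown libraries, with no overlap, a change of 1.60 ± 0.15 (4.38e-08). Larp1 fell by 0.18 on the log2 scale (5.89e-05), Eif4ebp1, a repressor of cap-dependent translation, by 0.30, and Cnbp, which binds TOP sequences, by 0.25. Whether these changes bear on the members was not tested.

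In the authors' deposited tables of EBSeq results, which rest on a model of their own, fewer members reached a posterior probability of differential expression of 0.95. In the authors' deposited table for Ddx10KD 8 members were lower and 0 higher, Rps20 among them with a ratio to control of 0.813. The authors' deposited tables gave 5 higher and 0 lower for Ddx24KD, 5 and 1 for Ddx27KD and 3 and 0 for Ddx54KD, where 12.4% to 18.3% of the listed genes reached that probability in the 4 tables. In each of the 4, the share of members that reached it was below the share of listed genes, unlike the higher calls of the edgeR fit in Ddx24KD, Ddx27KD and Ddx54KD.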

How the data were processed

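Expression was measured by RNA-seq of oligo-dT captured RNA in 15 libraries. Per the file headers, the authors deposited an RSEM table for each library with an expected count and a TPM value per gene. The builds and tools listed in the submitters' processing notes are mm10, RSEM and EBSeq. The RSEM version, the aligner and the gene annotation were not given in the sources used here. For each knockdown the authors also deposited a table with a posterior probability (a score) and a ratio of the knockdown to the control per gene, per the file headers. With multi-mapping reads divided by RSEM, counts of a member and of its processed pseudogenes can be exchanged, and adding the counts of 5 pseudogene IDs is one of the alternatives.

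Members and gene lists were chosen with earlier results of these data known. Expected counts were rounded to whole numbers and filtered (edgeR filterByExpr, 14335 of 23845 genes), scaled by TMM (factors 0.983 to 1.02) and fitted with edgeR 4.0.16 in R 4.3.3 (quasi-likelihood test) over all 15 libraries with group and replicate number as terms. P-values were adjusted by Benjamini-Hochberg over all tested genes, and a gene was called at an adjusted p under 0.05. Alternatives used DESeq2 1.42.0, limma 3.58.1 (voom, or log2(TPM + 1)), other scalings, filters and thresholds, and fits without each library. The fit was tested on simulated data with log2 changes larger than any of the members and a fixed spread. That does not show how often changes of the members' size are found. Libraries with the same number deviated together in all 30 pairs (correlation 0.106 to 0.335 over tested genes), and each of the 15 libraries was closest to its own number. Over the 74 members alone the correlation ran from -0.238 to 0.643, with 21 of 30 pairs over 0.1 and 13 of 15 libraries closest to their own number. What the number stands for is not given in the labels. Between replicates of a group, with no block, chi-squared per degree of freedom over genes was 6.35 to 13.0, above the value of 1 that counting alone gives. The labels call them biological replicates. P-values of the fits with the block measure the spread left between them once what same-numbered libraries share is taken out. Those of the fit without the block measure the whole spread between them.

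Members named were those with the largest changes each way, those with the smallest p in the test among knockdowns, the highest and lowest in TPM, those called in opposite directions, and a fixed list by role (Rpl5, Rpl11, Rplp0, Rplp1, Rplp2, Rpsa, Rps6, Rps19, Rps27a, Rpl24, Rpl10, Rpl41, Rps3a1 and Rps4x). From other lists, up to 4 genes with the smallest p were named. A few genes that these rules name are not reported here. Gene coordinates are from GENCODE M21 (GRCm38), and start sequences from RefSeq (GRCm38.p6).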

Additional observations from a re-analysis of the deposited data

Results flagged for a closer look

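The 4 knockdowns, each measured against the same EGFPKD libraries, differed from one another for 33 of the 74 members by the test of the difference itself, with the replicate block. Among the members named, the edgeR adjusted p of that test was 1.15e-04 for Rps20, 2.29e-04 for Rpl7, 2.52e-04 for Rpl17, 2.86e-04 for Rpl10 and 9.43e-04 for Rps9. It was 0.00125 for Rpl37, 0.00147 for Rpl24, 0.00205 for Rpl9, 0.00342 for Rpl13a, 0.0115 for Rps15a, 0.0156 for Rps10, 0.0223 for Rps15, 0.0236 for Rpl5 and 0.0452 for Rps6. In each of these 14 genes the fitted level was lowest in Ddx10KD. Rpl5 was called in no knockdown against EGFPKD and yet differed among the 4, with changes of -0.056 in Ddx10KD and 0.068 in Ddx54KD. The call of Rpl5 was lost without Ddx10KD replicate 1, 2 or 3 or Ddx54KD replicate 2 (adjusted p up to 0.123), and those of Rps10, Rps15 and Rps15a without Ddx10KD replicate 1, 2 or 3 (up to 0.121, 0.135 and 0.0923). That of Rpl13a was lost without Ddx10KD replicate 2 (0.0515), and that of Rps6 was kept only without Ddx24KD replicate 2, Ddx27KD replicate 3 or Ddx54KD replicate 1 (elsewhere up to 0.245). None of these 14 was called without the replicate block.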

How the results depend on the processing

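Among the results reported, no alternative turned the direction of a call. Without the replicate block, 3 members were called higher and 7 lower in Ddx10KD, 14 higher in Ddx24KD, 8 in Ddx27KD, 6 in Ddx54KD and 12 in the mean of the 4 knockdowns. In that fit 0 differed among the 4, and 2, 0 and 3 between Ddx10KD and Ddx24KD, Ddx27KD and Ddx54KD. With library totals only, 15 were higher in Ddx10KD. On the log2(TPM + 1) scale 21 were higher and 8 lower in Ddx10KD, 15 differed among the 4, and 17, 17 and 18 differed in the 3 pairs with Ddx10KD. Fitted on the compared groups alone, 12 were higher in Ddx10KD, and 17 differed between Ddx24KD and Ddx10KD and 47 between Ddx54KD and Ddx10KD. At an adjusted p under 0.01 the counts were 21 in Ddx27KD, 16 in Ddx54KD, 19 in the mean, 17 among the 4, and 20, 15 and 18 in the 3 pairs. Leaving out 1 library gave 3 to 11 higher and 9 to 17 lower in Ddx10KD, 30 to 52 higher and 0 to 1 lower in Ddx24KD, 18 to 38 higher in Ddx27KD, 13 to 39 higher and 0 to 1 lower in Ddx54KD, 19 to 41 in the mean, 15 to 44 among the 4, and 18 to 45, 13 to 38 and 17 to 38 in the pairs; the 1 lower call appeared without Ddx24KD replicate 2 in both. Leaving out a replicate number in every group, an alternative chosen after seeing the data, gave 3 to 5 and 9 to 11 in Ddx10KD, 23 to 46 in Ddx24KD, 8 to 33 in Ddx27KD, 16 to 23 in Ddx54KD, 18 to 29 in the mean, 6 to 20 among the 4, and 15 to 26, 3 to 15 and 12 to 17 in the pairs. The values without a number were 23, 46 and 26 for Ddx24KD, with number 1, 2 or 3 left out, 8 without number 1 for Ddx27KD, 16 and 17 without numbers 1 and 2 for Ddx54KD, 6, 20 and 14 among the 4, 16 and 15 without numbers 1 and 3 for Ddx24KD against Ddx10KD, 3, 13 and 15 for Ddx27KD against Ddx10KD, and 14, 17 and 12 for Ddx54KD against Ddx10KD. The cause was not tested, but fewer samples enter the fits that leave some out. The pairs of Ddx24KD, Ddx27KD and Ddx54KD had 0 calls under every alternative. The median of the members in Ddx10KD was -0.0070 and turned sign with library totals (0.031), TPM (0.054), a filter of 10 CPM (0.0023), without EGFPKD replicate 3 (1.3e-04) and without number 3 (0.0059). The lowest count of a member in any library was 3707.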
